A study of Homo sapiens with 6 samples.

Results

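The genes described here were YAP, TAZ, a pair of TEAD transcription factors and genes known as their targets or regulators: YAP1, WWTR1, TEAD1, TEAD4, CCN1, CCN2, ANKRD1, AMOTL2, LATS2 and AJUBA. They were taken by name from a table of 58174 genes, after Ensembl identifiers had been matched to symbols, and 10 of 10 were found. RNA was sequenced from cells labelled as AGS, a human gastric adenocarcinoma line. The aim was to compare gene expression with and without depletion of FTO, an enzyme that removes the m6A mark from RNA. There were 3 libraries from cells given a negative control siRNA (si-NC) and 3 from cells given an siRNA against FTO (si-FTO). The sample labels also called the first group wild type and the second FTO-/-, although the methods described depletion by transfected siRNA, and the group means cannot show which is right. Each group was represented by 1 value per gene, the authors' mean TPM, an abundance of transcripts scaled for their length and for the library's total. These means give neither the spread between libraries nor the sequencing depth, and the authors' own p-values were not used. No difference was tested here, and every difference below is a difference between 2 means without a replicate check.

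YAP and TAZ (the product of WWTR1) are coactivators that do not bind DNA by themselves and act mainly through the TEAD family of transcription factors. In the Hippo pathway the MST kinases activate the LATS kinases, which phosphorylate YAP and TAZ, and these then bind 14-3-3 proteins, stay in the cytoplasm and are degraded. Much of this control acts on the proteins and their place in the cell, so the RNA level of a coactivator is not its activity.

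FTO itself was looked at first, as a check of the labels. The authors' mean was 33.1 TPM in si-NC against 7.27 TPM in si-FTO. The level was 4.56-fold lower in the group labelled si-FTO, and the log2 ratio of mean TPM + 1, si-FTO over si-NC, was -2.05. All log2 ratios below are on this scale, which understates the change of genes at low levels, and a gene is called at least 2-fold higher or lower where its log2 ratio on it is at least 1 in size. Other folds are ratios of the means themselves.

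The labelled cell type was then checked against marker genes, because the groups differed in them. Of 14 epithelial markers, 11 had a mean of at least 0.5 TPM in at least 1 group, and 5 in both. Of the 11, 7 were at least 2-fold higher and 1 at least 2-fold lower in si-FTO (63.6% and 9.09%). Of all genes at that minimum, 11.4% were higher and 17% lower. With a pseudocount of 0.1 in place of 1, 3 of the 11 were lower. KRT7, ELF3, ST14 and CLDN4 passed through si-FTO alone and so could not be called lower. EPCAM and RAB25 passed through si-NC alone and so could not be called higher. The summed level of the 14 genes was 71.96 TPM in si-NC against 5395 TPM in si-FTO. KRT18 was the most abundant of them in si-NC, at 52.1 TPM against 1851 TPM in si-FTO. KRT8 was the most abundant in si-FTO, at 3139 TPM against 10.8 TPM in si-NC. Both keratin genes have many processed pseudogenes, so their values are uncertain. KRT7, listed at 0 in si-NC, reached 253 TPM in si-FTO, ELF3 was at 0.115 and 93.3 TPM, and ST14 was at 0.0376 and 39.3 TPM. Several defining epithelial genes were low or at 0 in both groups. EPCAM was at 1.22 TPM in si-NC against 0.113 TPM in si-FTO, and CDH1, which encodes E-cadherin and was the 1 gene lower with a pseudocount of 1, was at 3.67 and 0.685 TPM. KRT19, listed at 0 in si-NC, stood at 0.1296 TPM in si-FTO, while ESRP1 and GRHL2 were under 0.5 TPM in the control group and at 0 after FTO siRNA.

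Gastrointestinal markers moved in both directions. Of 12 genes, 6 passed the same minimum, 3 higher and 3 lower in si-FTO (50% each, against 11.4% and 17% of all genes). The summed level of the 12 genes was 84.7 TPM in si-NC against 79.0 TPM in si-FTO. GATA4, the most abundant in si-NC at 36.96 TPM, was listed at 0 in si-FTO, and so was SOX2, which stood at 13.2 TPM in si-NC. GATA6 was at 20.3 and 2.54 TPM. KLF5, the most abundant in si-FTO, was at 12.4 TPM in si-NC against 43.8 TPM in si-FTO, MUC1 was at 1.71 and 31.0 TPM, and HNF4A was at 0.0255 and 1.09 TPM. TFF1 and TFF3 were listed at 0 in both groups, and TFF2, MUC5AC and MUC6 were under 0.5 TPM in both. The groups thus differed in transcription factors and keratins that mark lineages, beyond the genes of the YAP and TAZ pathway.

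Of 9 fibroblast markers, 7 passed the minimum, 2 of them in both groups. Of the 7, 3 were higher and 2 lower (42.9% and 28.6%, against 11.4% and 17% of all genes). The summed level of the 9 genes was 17.0 TPM in si-NC against 46.8 TPM in si-FTO. COL1A1 was the most abundant in both groups, at 10.3 and 36.4 TPM. PDGFRB and FAP were the other genes higher and COL3A1 and PDGFRA the genes lower, with FAP listed at 0 in the control group and PDGFRA listed at 0 after FTO siRNA. COL3A1 and PDGFRA fell short of 2-fold after quantile normalization. COL1A2 and THY1 were under 0.5 TPM in both groups. Of 5 endothelial markers 4 were matched to the table, and CDH5 alone passed the minimum, at 0.00827 TPM in si-NC against 40.9 TPM in si-FTO. The summed level of these genes was 0.420 TPM in si-NC, with KDR most abundant, and 41.0 TPM in si-FTO, where KDR was listed at 0. Of 6 leukocyte markers, 3 passed, with a summed level of 4.81 and 7.61 TPM. CD68 was higher and the most abundant of them in si-FTO, at 1.49 and 6.42 TPM, and PTPRC, the defining gene, was listed at 0 in both groups. What part these marker differences have in the results below was not tested. The labels name AGS for both groups. Lineage genes were at 0 in 1 group alone, and several defining epithelial genes were low in both. Whether the groups were the same cell population, or were AGS, cannot be told from the means. Every value below therefore compares the groups as labelled. In bulk RNA, fewer cells of a type and less RNA per cell cannot be told apart.

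Across the table, 20493 genes had a mean of at least 0.5 TPM in at least 1 group and were compared. Of the 10 YAP, TAZ and TEAD pathway genes, 9 passed this minimum, all 9 in both groups. At least 2-fold higher in si-FTO were 8 of the 9, against 11.4% of all genes compared, and at least 2-fold lower were 0 of the 9, against 17% of all genes compared. The 10 genes and the other lists were chosen with earlier results of these data known. These shares therefore describe the chosen genes and are no test. The median log2 ratio of the 9 genes was 1.43, and that of all genes compared was -0.20. Setting the median ratio of genes with at least 10 TPM in both groups to 1 moved the median of all genes to -0.10 and that of the 9 genes to 1.55. Of all genes compared, 2340 were higher and 3492 lower; this became 2618 and 3164 with that scaling, and 2803 and 2902, nearly balanced, with quantile normalization. The 9 genes gave 8 higher and 0 lower under both. The plot of the group means shows the differences gene by gene.

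**Figure D1:**
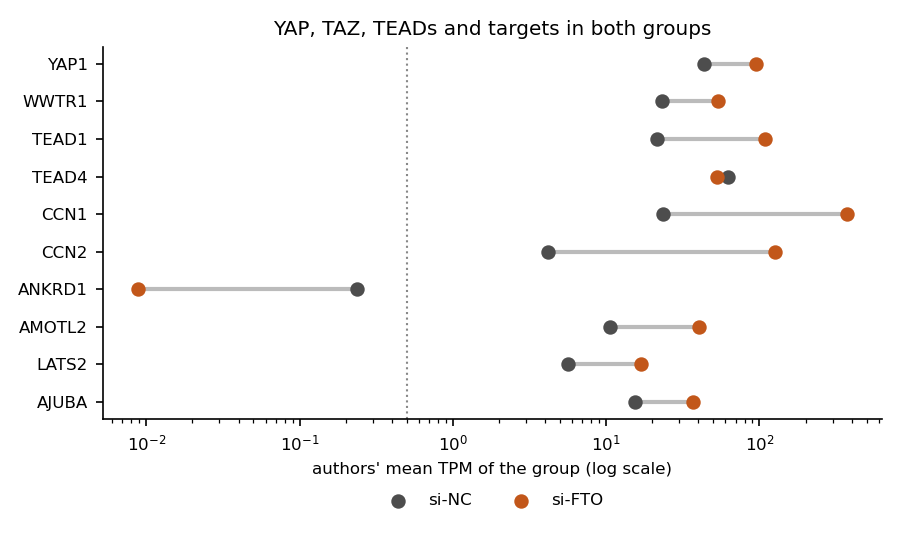
Authors' mean TPM of the 10 genes in si-NC (grey) and si-FTO (orange) on a log axis, 1 point per group, with the dotted line at 0.5 TPM. In 8 genes the si-FTO point lies to the right; TEAD4 is nearly level, and both ANKRD1 points lie left of the line.

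The coactivators were higher in si-FTO by similar factors. YAP1 (ENSG00000137693, GRCh37 chr11:101981178-102104155, plus strand) was at 43.6 TPM in si-NC against 94.2 TPM in si-FTO, 2.16-fold higher, with a log2 ratio of 1.10. WWTR1 (ENSG00000018408, chr3:149235022-149454501, minus strand) was at 23.2 TPM in si-NC against 53.8 TPM in si-FTO, 2.32-fold higher, with a log2 ratio of 1.18. YAP1 was the more abundant of the pair in both groups. Its share of their summed level was 65.2% in si-NC against 63.7% in si-FTO, so the balance between the coactivators differed little while their sum went from 66.8 to 148 TPM.

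Among the TEADs, which carry the DNA-binding domain, the family's leading gene differed between the groups. TEAD1 (ENSG00000187079, chr11:12695968-12966284, plus strand) was at 21.6 TPM in si-NC against 109 TPM in si-FTO, 5.05-fold higher, with a log2 ratio of 2.28. TEAD4 (ENSG00000197905, chr12:3068496-3149842, plus strand) was at 62.2 TPM in si-NC against 53.2 TPM in si-FTO, with a log2 ratio of -0.22, close to the median of all genes. TEAD4 was thus the 1 compared gene of the 9 that did not reach a 2-fold difference. The paralogs outside the 10 genes were nearly level: TEAD2 stood at 34.6 and 34.7 TPM and TEAD3 at 15.7 and 15.4 TPM. TEAD1 made up 16.1% of the summed TEAD level in si-NC against 51.3% in si-FTO, and TEAD4 46.4% and 25.05%. The summed level was 134 TPM in si-NC against 212 TPM in si-FTO, and TEAD1 was the 1 paralog of the 4 past 2-fold.

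**Figure D2:**
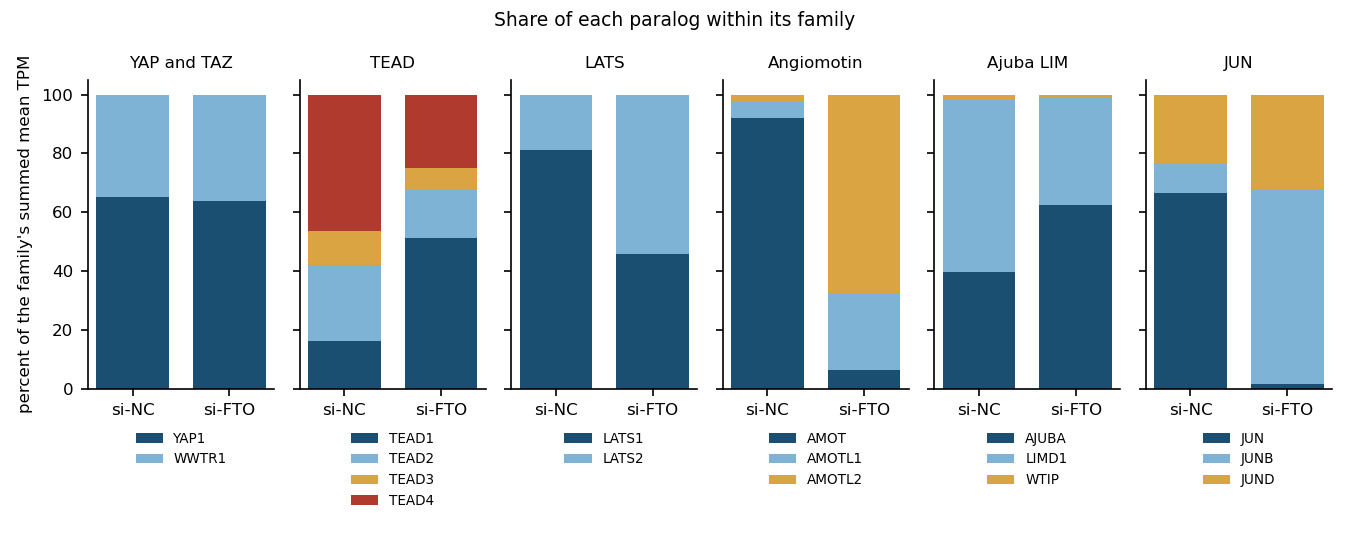
Share of each paralog in the summed authors' mean TPM of its family, in percent, for si-NC and si-FTO, 1 stacked bar per group. TEAD1, LATS2, AMOTL2, AJUBA and JUNB hold the largest share of their families in si-FTO, where TEAD4, LATS1, AMOT, LIMD1 and JUN did in si-NC, while YAP1 leads its pair in both.

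The vestigial-like proteins also bind TEADs, and VGLL4 competes there with YAP. VGLL4, the most abundant of them in both groups, was at 34.7 TPM in si-NC against 57.8 TPM in si-FTO. VGLL3 was higher, at 1.30 and 4.41 TPM, VGLL2 was lower, at 5.75 and 0.0476 TPM, and VGLL1 was listed at 0 in both groups. Of the 6 genes in this list, TEAD2 and TEAD3 included, 5 were compared. Of these, 1 was higher and 1 lower (20% each, against 11.4% and 17% of all genes), and the median log2 ratio was 0.0056.

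The secreted matricellular proteins CCN1 and CCN2, the most widely used readouts of YAP and TAZ, showed the largest log2 ratios of the 10 genes. CCN1 (ENSG00000142871, chr1:86046444-86050272, plus strand) was at 23.3 TPM in si-NC against 369.8 TPM in si-FTO, 15.9-fold higher, with a log2 ratio of 3.93. CCN2 (ENSG00000118523, chr6:132269316-132272512, minus strand) was at 4.20 TPM in si-NC against 126 TPM in si-FTO, 29.96-fold higher, with a log2 ratio of 4.61. Ordered from the highest log2 ratio down, CCN2 was number 177 and CCN1 number 265 of the 20493 genes compared. By level, CCN1 went from number 6324 in si-NC to number 343 in si-FTO. CCN1 stayed the more abundant of the pair, with 5.55 times the level of CCN2 in si-NC and 2.94 times in si-FTO.

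ANKRD1, a nuclear ankyrin repeat protein and another common readout of YAP, stood apart from them. ANKRD1 (ENSG00000148677, chr10:92671853-92680844, minus strand) was at 0.236 TPM in si-NC against 0.00883 TPM in si-FTO. Both values were under the minimum of 0.5 TPM, so the gene was not compared, and it was not high in the group where CCN1 and CCN2 were.

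The promoters of these genes were searched for the core of the TEAD motif, CATTCC or its reverse complement GGAATG, because most of the targets differed in the same direction. The windows came from RefSeq on GRCh38.p14 and ran from 250 bases before to 50 bases after a transcription start, and 7 of the 10 genes had at least 1, with 10 windows in all. The set of windows used here held none for TEAD1, TEAD4 and CCN1, which does not mean that RefSeq lacks a start for them. The core was present in 6 of the 10 windows, 1 each from CCN2, ANKRD1, AMOTL2, LATS2, AJUBA and YAP1, and in 14% of all 35116 windows. Of the 13 windows of the other YAP and TAZ target genes listed further on, 5 held it (38.5%). Most of these genes were listed because they are known targets. A share above that of all windows is therefore no result about the si-NC and si-FTO groups. The CCN2 window held 3 matches, and 0.128% of all windows held 3 or more. The ANKRD1 window held 2 matches, and 1.37% of all windows held 2 or more. The windows of CCN2 (chr6:131951373-131951622) and ANKRD1 (chr10:90921088-90921337), both on the minus strand, are given up to the base before the start, with the TEAD core in capitals.

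CCN2: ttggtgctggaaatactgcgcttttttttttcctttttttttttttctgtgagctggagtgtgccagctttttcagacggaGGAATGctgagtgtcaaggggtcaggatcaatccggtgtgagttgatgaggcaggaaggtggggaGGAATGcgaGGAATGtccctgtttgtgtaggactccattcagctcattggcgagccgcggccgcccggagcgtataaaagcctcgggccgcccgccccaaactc
ANKRD1: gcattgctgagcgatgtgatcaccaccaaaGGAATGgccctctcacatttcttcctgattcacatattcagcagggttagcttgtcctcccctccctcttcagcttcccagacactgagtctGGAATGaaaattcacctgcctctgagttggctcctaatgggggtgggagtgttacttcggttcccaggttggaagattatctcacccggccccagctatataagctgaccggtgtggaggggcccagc

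In CCN2 the cores began 169, 104 and 95 bases before the start, the last pair separated by 3 bases. In ANKRD1 they began 220 and 128 bases before it. The gene with the largest log2 ratio and the gene under the minimum thus both carried more than 1 core, and a match of letters is a description, not a bound site. The pattern TGANTCA, a loose form of the AP-1 motif with any middle base, was searched on both strands. It was found in 1 of the 10 windows, that of ANKRD1, and in 7.71% of all windows. In ANKRD1 it began 195 bases before the start, apart from both TEAD cores. There it read TGATTCA, and no form that limits the middle base was searched.

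**Figure D3:**
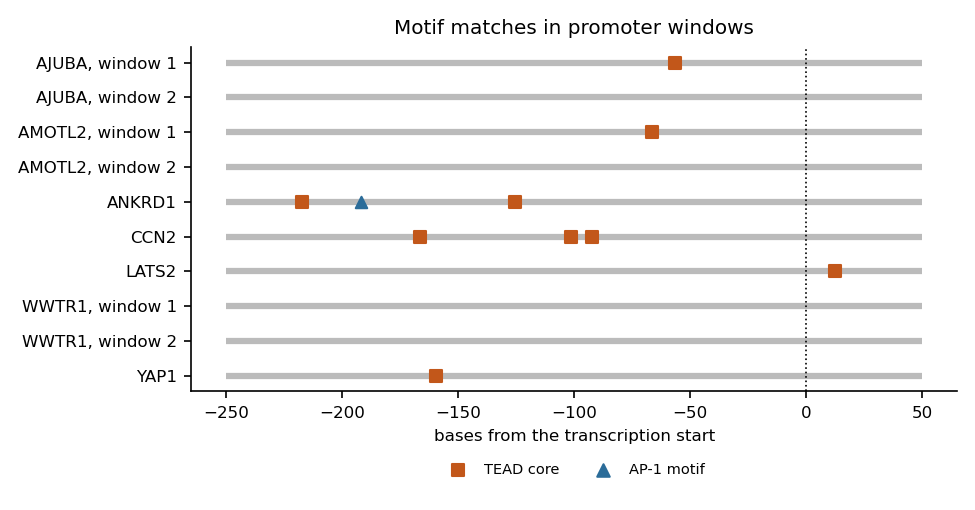
Positions of the TEAD core (orange squares) and the pattern TGANTCA (blue triangle, labelled AP-1 motif) in the promoter windows of 7 genes. The axis gives bases from the transcription start (dotted line), each grey bar being a window. CCN2 has 3 cores and ANKRD1 has 2, and WWTR1 has none in either window.

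AMOTL2 and LATS2 are targets that act back on the pathway. AMOTL2 (ENSG00000114019, chr3:134074189-134094321, minus strand), an angiomotin that holds YAP at junctions and activates LATS, was at 10.6 TPM in si-NC against 40.4 TPM in si-FTO, 3.803-fold higher, with a log2 ratio of 1.83. LATS2 (ENSG00000150457, chr13:21547175-21635725, minus strand), a kinase that phosphorylates YAP and TAZ, was at 5.61 TPM in si-NC against 16.8 TPM in si-FTO, 2.99-fold higher, with a log2 ratio of 1.43. AJUBA (ENSG00000129474, chr14:23440386-23451760, minus strand), a LIM protein that binds and restrains LATS, was at 15.5 TPM in si-NC against 36.8 TPM in si-FTO, 2.38-fold higher, with a log2 ratio of 1.20. AMOTL2 and LATS2, which restrain YAP, and AJUBA, which restrains LATS, were therefore all higher in si-FTO. Their promoter windows had 1 TEAD core each, shown in capitals with up to 20 bases on either side, on the minus strand at chr3:134374491-134374536 for AMOTL2, chr13:21061567-21061597 for LATS2 and chr14:22976876-22976921 for AJUBA in GRCh38.p14.

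AMOTL2: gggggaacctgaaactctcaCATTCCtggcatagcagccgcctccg
LATS2: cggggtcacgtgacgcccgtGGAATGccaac
AJUBA: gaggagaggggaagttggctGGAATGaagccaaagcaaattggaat

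The core began 69 bases before the start in AMOTL2 and 59 bases before it in AJUBA. In LATS2 it lay 10 bases into the transcribed sequence. AMOTL2 and AJUBA each had a further window, at another start, with 0 cores.

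Within their families these genes took a larger share in si-FTO. LATS2 made up 18.9% of the summed LATS level in si-NC against 54.2% in si-FTO, while LATS1 went from 24.0 to 14.1 TPM and the sum from 29.6 to 30.9 TPM. The 2 groups thus had nearly the same summed LATS level with different leading genes. AMOT, which was not among the 10 genes, was at 476 TPM in si-NC against 3.71 TPM in si-FTO, 128-fold lower. AMOTL2 made up 2.05% of the summed angiomotin level in si-NC against 67.4% in si-FTO, and the sum went from 518 to 60.0 TPM, lower in si-FTO although AMOTL2 was higher. AJUBA made up 39.6% of the summed level of AJUBA, LIMD1 and WTIP in si-NC against 62.6% in si-FTO.

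Other genes known as targets of YAP and TAZ were taken from a signature used across cancers, without the 5 of the 10 genes it contains. All 17 were compared, 15 with at least 0.5 TPM in both groups. At least 2-fold higher in si-FTO were 10 of 17 (58.8%, against 11.4% of all genes compared) and at least 2-fold lower 2 of 17 (11.8%, against 17%), with a median log2 ratio of 2.13 against -0.20 for all genes compared. The largest log2 ratio was that of IGFBP3, a secreted binding protein of insulin-like growth factors, at 0.353 TPM in si-NC against 132.5 TPM in si-FTO. MYOF, a ferlin of the plasma membrane, was at 0.825 and 137 TPM and was the most abundant in si-FTO. AXL, a receptor tyrosine kinase, was at 0.151 and 27.5 TPM, and NT5E, the ectoenzyme CD73, was at 0.622 and 10.02 TPM. These 4 genes were under 1 TPM in si-NC, and IGFBP3 and AXL passed the minimum through si-FTO alone. FOXF2, a forkhead factor and the leading gene by level in si-NC, went the other way, at 48.1 TPM in si-NC against 0.963 TPM in si-FTO, and RBMS3 was lower as well, at 6.97 and 2.48 TPM, though by less than 2-fold after quantile normalization.

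**Figure D4:**
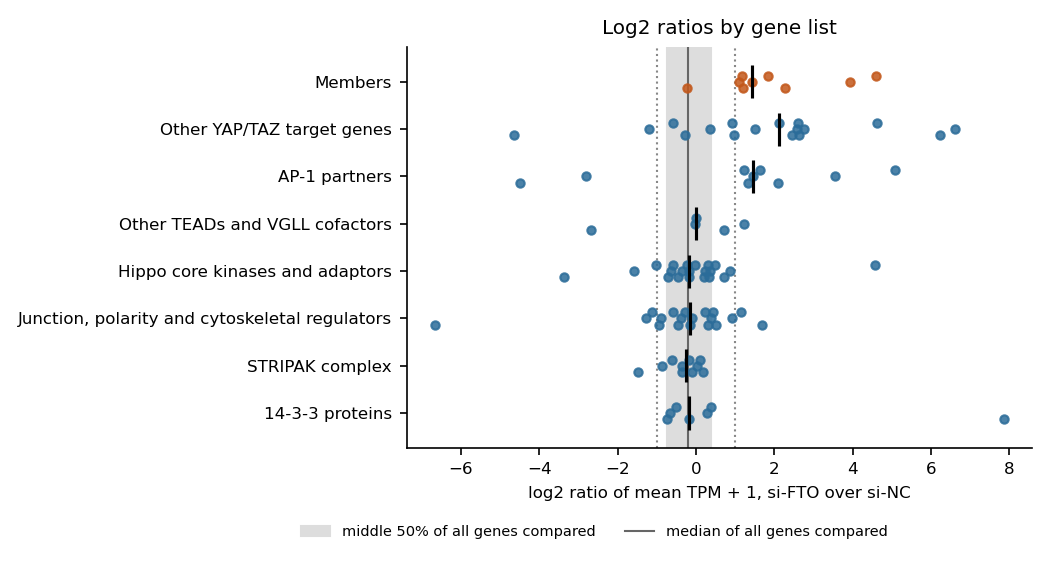
Log2 ratio of mean TPM + 1, si-FTO over si-NC, for each compared gene of 8 gene lists (points), with the list's median (black bar), the median and middle 50% of all genes compared (grey line and band) and 2-fold differences (dotted lines). The 10 genes of the report (9 compared, orange), the other targets and the AP-1 partners have medians of 1.43, 2.13 and 1.46, and the medians of the other 5 lists lie within the grey band.

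The AP-1 factors bind DNA beside TEADs at many enhancers. Of 10 genes 9 were compared. Of these, 7 were higher and 2 lower in si-FTO (77.8% and 22.2%, against 11.4% and 17% of all genes), and the median log2 ratio was 1.46. FOS, the most abundant in si-FTO, was at 25.04 TPM in si-NC against 888 TPM in si-FTO, JUNB was at 27.8 and 337 TPM, ATF3 at 26.8 and 118 TPM, and FOSL1 at 2.49 and 9.93 TPM. JUN, the most abundant in si-NC, was lower, at 190.5 TPM in si-NC against 7.55 TPM in si-FTO, and BATF3 was at 15.1 and 1.30 TPM. BATF was under 0.5 TPM in both groups. The leading JUN paralog was JUN in si-NC, with 66.6% of the summed level of JUN, JUNB and JUND, and JUNB in si-FTO, also with 66.6%.

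The kinases and adaptors upstream showed no such shift as a list. Of 21 genes of the Hippo core and its upstream kinases, all compared, 1 was higher (4.76%, against 11.4% of all genes) and 3 were lower (14.3%, against 17%) in si-FTO, with a median log2 ratio of -0.17 that became 0.041 after quantile normalization. WWC3, a scaffold of LATS, was at 0.0811 TPM in si-NC against 24.6 TPM in si-FTO. TNIK was at 19.9 and 1.02 TPM, FRMD6 at 15.2 and 4.42 TPM and MAP4K1 at 2.99 and 0.973 TPM, the last short of 2-fold after either rescaling of the groups. The most abundant were MAP4K4 in si-NC, at 60.2 TPM, and MOB1A in si-FTO, at 56.5 TPM. The MST kinases were not past 2-fold: STK3 was at 12.1 and 9.22 TPM and STK4 at 31.3 and 20.5 TPM.

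Of 20 genes for junction, polarity and cytoskeletal regulators, 19 were compared. Of these, 2 were higher and 3 lower (10.5% and 15.8%, against 11.4% and 17% of all genes), with a median log2 ratio of -0.15. DLG5, a scaffold of cell polarity and the most abundant in si-FTO, was at 41.2 TPM in si-NC against 134 TPM in si-FTO, and PATJ was at 7.48 and 17.9 TPM. AMOT was the most abundant in si-NC and the lowest in log2 ratio, at -6.66, and ordered from the lowest up it was number 10 of all genes compared. FAT4, an atypical cadherin, was at 3.07 and 0.690 TPM, and DCHS1, its ligand, at 1.23 and 0.0171 TPM, both short of 2-fold after quantile normalization. RASSF6 was under 0.5 TPM in both groups.

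The STRIPAK complex removes phosphate from MST. All 10 of its genes were compared, with a median log2 ratio of -0.27. Of these, 0 were higher and 1 was lower (0% and 10%, against 11.4% and 17% of all genes). That gene, PPP2R1A, a scaffold subunit of the phosphatase, was at 219 TPM in si-NC, the highest of the list there, and 77.8 TPM in si-FTO. PPP2CA, its catalytic subunit, was the most abundant in si-FTO, at 73.7 and 84.2 TPM. Of 7 genes for 14-3-3 proteins, all compared, 1 was higher and 0 were lower, with a median log2 ratio of -0.17. These shares were 14.3% and 0%, against 11.4% and 17% of all genes. SFN, 14-3-3 sigma, was at 0.812 TPM in si-NC against 419 TPM in si-FTO, where it was the most abundant of the 7. YWHAE, the most abundant in si-NC, was at 653 and 408 TPM, and several of these genes have pseudogenes that can share reads with them.

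Neighbours on the chromosome were examined to see whether whole stretches moved with the 10 genes. For each gene the 10 nearest compared genes were taken. Around CCN1 their median log2 ratio was -0.91, with 0 higher and 4 lower, and around CCN2 it was -0.86, with 0 higher and 5 lower. No neighbour of CCN1 or CCN2 was thus at least 2-fold higher. Around WWTR1, in contrast, 4 were higher and 1 was lower, and around TEAD1 3 were higher and 0 lower, where 11.4% of all genes were higher and 17% lower. Higher and lower were 2 and 2 around YAP1, 1 and 1 around both TEAD4 and AJUBA, 0 and 3 around AMOTL2, and 1 and 3 around both LATS2 and ANKRD1. These counts include genes that overlap the gene itself: WWTR1-AS1 was 1 of the 4 higher around WWTR1, and ENSG00000259132 was the 1 higher around AJUBA. The others higher around WWTR1 were CP, TM4SF1 and TM4SF1-AS1, which lies beside TM4SF1. All 4 were under 0.5 TPM in si-NC and passed the minimum through si-FTO alone. The medians around YAP1, LATS2, ANKRD1 and TEAD4 were -0.18, -0.51, -0.50 and -0.13, and those around WWTR1, TEAD1, AMOTL2 and AJUBA were 0.24, 0.12, 0.13 and 0.14. Near YAP1, BIRC3 was at 0.218 TPM in si-NC against 2.56 TPM in si-FTO, and BIRC2 was at 10.6 and 8.65 TPM. Beside WWTR1, TM4SF1, listed at 0 in si-NC, stood at 558 TPM in si-FTO. TM4SF1, TM4SF1-AS1 and CP were named after their values were seen.

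**Figure D5:**
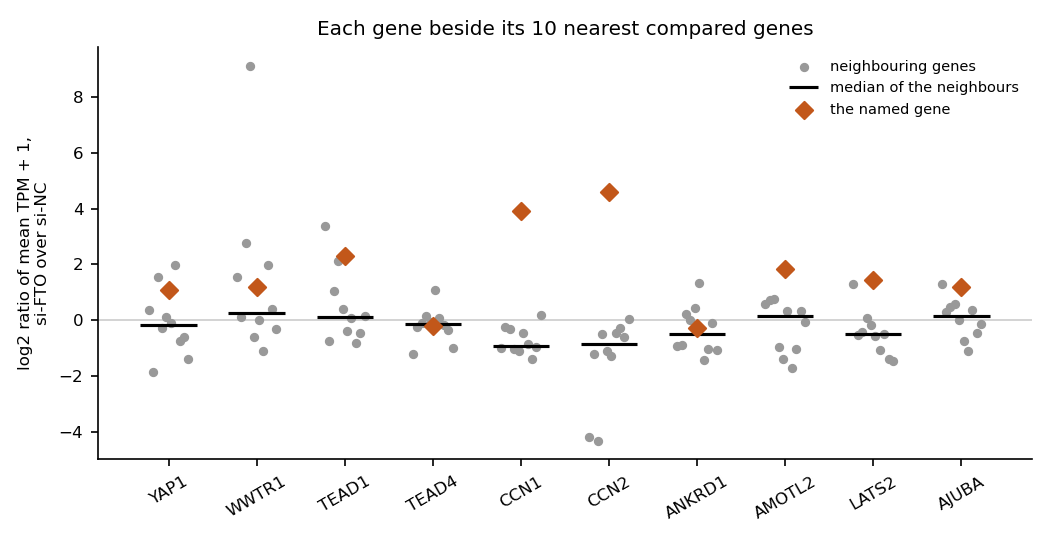
Log2 ratio of mean TPM + 1, si-FTO over si-NC, for each of the 10 genes (orange diamonds), its 10 nearest compared genes (grey points) and their median (black bar). The neighbours' medians are lowest around CCN1 and CCN2, at -0.91 and -0.86, and highest around WWTR1, at 0.24.

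Some of the 10 genes overlap others, and whether reads were assigned by strand was not given in the sources used here, so values of overlapping genes are uncertain. WWTR1-AS1, on the strand opposite WWTR1, was at 0.366 TPM in si-NC against 3.04 TPM in si-FTO, far below WWTR1 itself. ENSG00000259132, annotated as protein coding on the same strand as AJUBA and overlapping it, was at 8.94 and 23.4 TPM and could share reads with it. ENSG00000277459, opposite YAP1, was at 1.65 and 2.43 TPM. The other overlapping genes were under 0.5 TPM in both groups, and TEAD4, CCN1 and ANKRD1 overlapped no other gene of the table.

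FTO acts on m6A, which is placed mostly within a short sequence context that includes GGACT, and this word was counted in the sense strand of 1 canonical transcript per gene, a choice made after the values were seen. The median over all genes compared with a transcript was 0.911 per kilobase, and over the 10 genes it was 0.982 per kilobase. CCN1 had 5 in 2278 nucleotides, or 2.19 per kilobase, and CCN2 had 0 in 2338 nucleotides. The genes with the largest log2 ratios were thus at opposite ends of the 10 in this count. YAP1, WWTR1 and TEAD1 had 0.741, 0.794 and 0.743 per kilobase, below the median of all genes, and AMOTL2, LATS2 and AJUBA had 1.44, 1.44 and 1.68 per kilobase, above it. TEAD4, which did not reach 2-fold, had 1.17 per kilobase, and ANKRD1 had 0.559. Over all genes compared with a transcript, the medians were 1.01 per kilobase for those higher in si-FTO, 0.951 for those lower and 0.885 for those past 2-fold in neither direction.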

How the data were processed

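Total RNA from cells labelled as AGS was sequenced in 3 si-NC and 3 si-FTO libraries, grouped by their titles. The authors mapped reads to hg19 with Bowtie and quantified them with RSEM, per the paper's methods, while the submitters' processing notes name HISAT2. They deposited TPM as 1 mean per group, with 0.0001 where a gene is listed at 0, which was read as 0. The deposited table also holds the authors' log2 ratios, p-values and q-values, and a further table repeats a selection of its genes; neither was used. TPM keeps no depth, so precision is unknown.

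Symbols were matched for 55726 of 58174 identifiers. Log2 ratios used a pseudocount of 1 TPM, a minimum of 0.5 TPM in at least 1 group and a 2-fold threshold. A limma fit had been planned if values per library were found. The members and lists were chosen with earlier results of these data known. From each further list, up to 4 genes per direction with the most extreme log2 ratios past 2-fold, the most abundant gene in each group and genes under the minimum were named; others were named for their family or after their values were seen. Some genes covered by this rule are not reported here. Gene positions and transcripts came from GENCODE release 44 on GRCh37, and promoters from RefSeq on GRCh38.p14. Alternatives were a pseudocount of 0.1, no minimum or one of 5 TPM, median-ratio scaling, quantile normalization and a 1.5-fold threshold. Python 3.11.15, numpy 2.4.6, pandas 2.3.3 and matplotlib 3.10.9 were used, and the calculations were tested on simulated data.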

Additional observations from a re-analysis of the deposited data

How the results depend on the processing

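No paired analysis was possible because each group is represented by a single mean, and leaving out each replicate in turn was not run for the same reason. The 10 genes gave 8 higher and 0 lower under all 6 alternatives. Their median log2 ratio of 1.43 became 1.56 with a pseudocount of 0.1, 1.31 with no minimum, 1.55 with median-ratio scaling and 1.61 with quantile normalization. The median of the 17 other targets, 2.13, became 2.54, 2.25 and 2.35 with the pseudocount, median-ratio scaling and quantile normalization, and their number lower went from 2 to 1 with quantile normalization. Their number higher, 10, became 12 with median-ratio scaling and at 1.5-fold, and 11 with the pseudocount and with quantile normalization. The number of epithelial markers lower went from 1 to 3 with the pseudocount and at 1.5-fold, and to 0 with a minimum of 5 TPM. For all genes compared, the median of -0.20 became -0.25 with the pseudocount, 0.00 with no minimum, -0.18 with a minimum of 5 TPM, -0.10 with median-ratio scaling and -0.066 with quantile normalization. With no minimum, genes listed at 0 in both groups enter at a ratio of 0. Their 2340 higher and 3492 lower became 3855 and 6397 at 1.5-fold, and 2254 were lower with a minimum of 5 TPM, which leaves 12967 genes. The log2 ratio of FTO, -2.05, became -2.17 with the pseudocount, -1.93 with median-ratio scaling and -1.92 with quantile normalization. Medians near 0 changed sign in 3 further lists: Hippo core, to 0.041 with quantile normalization; junction regulators, to 0.064, and TEAD and VGLL genes, to -0.013, both with a minimum of 5 TPM. The gastrointestinal median of -0.78 became 0.015 with no minimum and -2.59 with one of 5 TPM. The leukocyte median of -0.39 became -1.07 with the pseudocount, and 1.57 with a minimum of 5 TPM, where 1 gene was left. The number of leukocyte markers lower went from 1 to 2 with the pseudocount. It went to 0 with median-ratio scaling, quantile normalization and a minimum of 5 TPM. Except where fewer or more genes entered, the cause was not tested. ANKRD1 had too little signal for a ratio, and depth, unknown here, limits every gene listed at or near 0.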
